A study of Mus musculus with 59 samples.

Results

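The solute carrier families SLC1, SLC3, SLC7, SLC36, SLC38 and SLC43 hold most of the proteins that move amino acids across the cell surface and the lysosomal membrane. Members were all probe sets with exactly 1 annotated gene symbol that begins with Slc1a, Slc3a, Slc7a, Slc36a, Slc38a or Slc43a and ends in a number. This rule found 86 of 45037 probe sets that are not controls, for 40 of 18193 genes. The Slc7a family had 15 genes, Slc38a 9, Slc1a 7, Slc36a 4, Slc43a 3 and Slc3a 2. All 40 symbols were found in the RefSeq gene table of the mouse assembly GRCm38.p6. The rule left out 3 probe sets of opposite-strand genes and 1 probe set annotated with 2 symbols.

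The study measured RNA in liver, bone marrow and spleen of B6C3F1 hybrid mice on 59 whole-genome expression arrays. Mice received baclofen, an agonist of the GABA-B receptor used as a muscle relaxant, or the vehicle, 0.5% methylcellulose. Tissues were taken 2 h after a single dose (1 day) or after the last of 5 daily doses (5 days). Bone marrow and spleen each had 4 baclofen and 4 vehicle arrays at 1 day, and 8 baclofen and 4 vehicle arrays at 5 days. Liver had 4 baclofen and 3 vehicle arrays at 1 day, and 8 baclofen and 4 vehicle arrays at 5 days. The dose, age and sex of the mice are not given in the sources used here. The labels do not say which arrays came from the same mouse, nor that each array of a group came from its own mouse, so p-values measure the spread between these arrays. All values below are log2 of the deposited RMA intensity, and a difference of 1 is a 2-fold change in intensity.

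Amino acid transporters differ in what drives them. The SLC38 family uses the sodium gradient to bring in glutamine, alanine and other neutral amino acids, or works inside the lysosome. Light chains of the SLC7 family pair with the heavy chains Slc3a1 or Slc3a2 and exchange one amino acid for another, while the SLC7 cationic carriers bring in arginine, lysine and ornithine without a partner. SLC1 proteins carry glutamate, aspartate or small neutral amino acids, SLC36 proteins use protons, and the SLC43 proteins Slc43a1 and Slc43a2 let large neutral amino acids such as leucine pass by facilitated diffusion. The liver takes up alanine, glutamine and arginine from the blood for glucose and urea synthesis, and system A transport, which Slc38a2 carries, is known to be raised in liver cells by glucagon and by lack of amino acids. Marrow and spleen of the mouse make blood cells, and dividing cells depend on glutamine and leucine uptake.

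Promoter windows of 250 bases before a transcript start were available for 29 of the 40 genes, from RefSeq, build GRCm38.p6. Slc38a2 is shown because it carried the largest difference in liver. Slc38a5 and Slc43a1 are shown because their values ran together across the arrays of spleen and of marrow. Capitals mark the E-box CACGTG, the only one of the motifs searched that these windows hold, at 30 bases before the start in Slc38a5 and 64 in Slc43a1. The windows are chr15:96699729-96699978 on the minus strand, chrX:8271131-8271380 on the plus strand and chr2:84840073-84840322 on the plus strand, in this order, each read 5′ to 3′ along the gene.
Slc38a2: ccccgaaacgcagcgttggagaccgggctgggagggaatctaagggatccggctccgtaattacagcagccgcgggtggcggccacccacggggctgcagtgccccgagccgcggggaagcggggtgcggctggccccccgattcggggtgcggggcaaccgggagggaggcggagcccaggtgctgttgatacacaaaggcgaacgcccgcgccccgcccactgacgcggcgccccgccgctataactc
Slc38a5: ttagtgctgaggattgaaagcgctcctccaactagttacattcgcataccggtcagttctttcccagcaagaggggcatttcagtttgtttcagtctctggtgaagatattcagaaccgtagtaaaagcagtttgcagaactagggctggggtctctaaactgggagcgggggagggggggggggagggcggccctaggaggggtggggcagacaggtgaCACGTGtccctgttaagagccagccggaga
Slc43a1: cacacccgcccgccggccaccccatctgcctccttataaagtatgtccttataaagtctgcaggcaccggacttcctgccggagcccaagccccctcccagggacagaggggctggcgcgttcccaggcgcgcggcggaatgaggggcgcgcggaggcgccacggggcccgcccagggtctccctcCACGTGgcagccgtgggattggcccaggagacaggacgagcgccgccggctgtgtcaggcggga
Both strands were searched for 5 motifs. CACGTG lies in 6.02% of the 32851 mouse promoter windows and in a window of 7 of the 29 member genes, namely Slc1a6, Slc1a7, Slc7a14, Slc36a1, Slc38a5, Slc38a7 and Slc43a1. The C/EBP-ATF element TGATGNAA lies in 3.45% of all windows and in those of Slc7a7 and Slc7a11. The cyclic AMP response element TGACGTCA lies in 1.55% of all windows and in that of Slc38a6. The GATA motif AGATAA, added after the data had been seen, lies in 9.99% of all windows and in those of Slc3a1, Slc7a7 and Slc7a9. The glucocorticoid response element, a palindrome of spaced repeats, lies in 0.387% of all windows and in none of the members' windows. Several genes have more than 1 window, and the 29 genes have 40 windows in all. Counts of genes are therefore not on the scale of the shares of windows. A match says only that the letters are there.

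A few facts of the whole series bear on the results. Array correlations were at least 0.970 within a tissue and at most 0.958 between tissues, so each array stood with its labelled tissue. The means of the hepatocyte markers in liver were between 14.35 and 14.57. For 5 of the 7 livers of 1 day, the source field names the other treatment than the title and the treatment field. Groups follow the title and treatment field, and transporter calls that rest on these livers are also given by the source field. Uncalled members, marker lists and genes outside the families are given for these livers by the title and treatment field alone. In 4 libraries, transcripts of another tissue stood out. Hepatocyte markers averaged 9.21 in spleen baclofen 5 day replicate 5, against 9.34 and 7.04 in spleen vehicle 5 day replicates 3 and 1, and at most 6.02 in the other spleens. Skeletal muscle markers averaged 10.03 in marrow baclofen 1 day replicate 3 and at most 8.00 in the other marrows. Array medians were 34.7 to 36.8 in liver, 72.8 to 76.2 in marrow and 74.3 to 77.8 in spleen, on the linear scale. Liver medians thus lay below those of marrow and spleen, which overlapped. The tissues may have been scaled apart, so their levels were not tested against each other.

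Which transporters were tested differed by tissue. In each tissue the brighter genes were tested, those whose mean over its arrays reached percentile 40 of all gene means, 10916 per tissue, and 24 of the 40 members were among them. In all 3 tissues 18 members passed. Another 6, Slc1a2, Slc1a4, Slc1a7, Slc3a1, Slc7a13 and Slc38a4, passed in liver only. The cut is a rank within a tissue, at an intensity of 42.9 in liver, 83.6 in marrow and 79.5 in spleen. Slc1a4 therefore passed in liver at a mean of 5.78, but not in marrow at 5.79 or spleen at 5.83. Slc1a7 passed in liver at 5.43, but not in marrow at 6.32 or spleen at 6.13. A further 6, Slc1a5, Slc7a1, Slc7a6, Slc7a8, Slc36a2 and Slc38a5, passed in marrow and spleen but not in liver. The other 10 passed nowhere: Slc1a1, Slc1a6, Slc7a3, Slc7a9, Slc7a10, Slc7a11, Slc7a12, Slc7a14, Slc7a15 and Slc36a3. Some gaps between tissues were far above the shift in scale. Slc38a4, a sodium-coupled carrier of neutral amino acids, averaged 12.54 ± 0.18 in vehicle livers (SD, n = 7) and 3.70 ± 0.06 in vehicle marrows (SD, n = 8). Slc38a5, a sodium-coupled carrier of glutamine, serine and histidine, averaged 3.63 ± 0.13 in vehicle livers (SD, n = 7) and 10.40 ± 0.22 in vehicle marrows (SD, n = 8).

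Baclofen was set against vehicle in each tissue on each day, by limma with Benjamini-Hochberg adjustment over all 10916 genes, and a gene was called at an adjusted p under 0.05. Over the 6 comparisons there were 19 calls of 12 transporter genes, 17 of them rises and 2 falls. Member shares called were 8.33% and 25% in liver (1 and 5 days), 4.17% and 20.8% in marrow, 16.7% and 4.17% in spleen. Of all genes 2.67% and 10.6%, 7.36% and 10.1%, and 15.5% and 4.43% were called, in the same order. Rises made up 1.58% and 4.86%, 3.11% and 6.15%, and 7.64% and 3.05% of all genes. Falls made up 1.09% and 5.75%, 4.25% and 3.93%, and 7.91% and 1.38%. The Slc38a family had 7 calls of 5 genes, Slc7a 6 calls of 4 genes, Slc43a 5 calls of 2 genes and Slc36a 1 call of 1 gene. None of the 5 Slc1a and 2 Slc3a genes tested in some tissue was called. Without the brightness filter, 0 of the 16 dim members of any tissue passed in any comparison, and their smallest adjusted p was 0.123 (limma). The share of all dim genes called was not counted, so this cannot be read as particular to the members. The plot of differences shows Slc38a2 in liver apart from the rest.

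**Figure D1:**
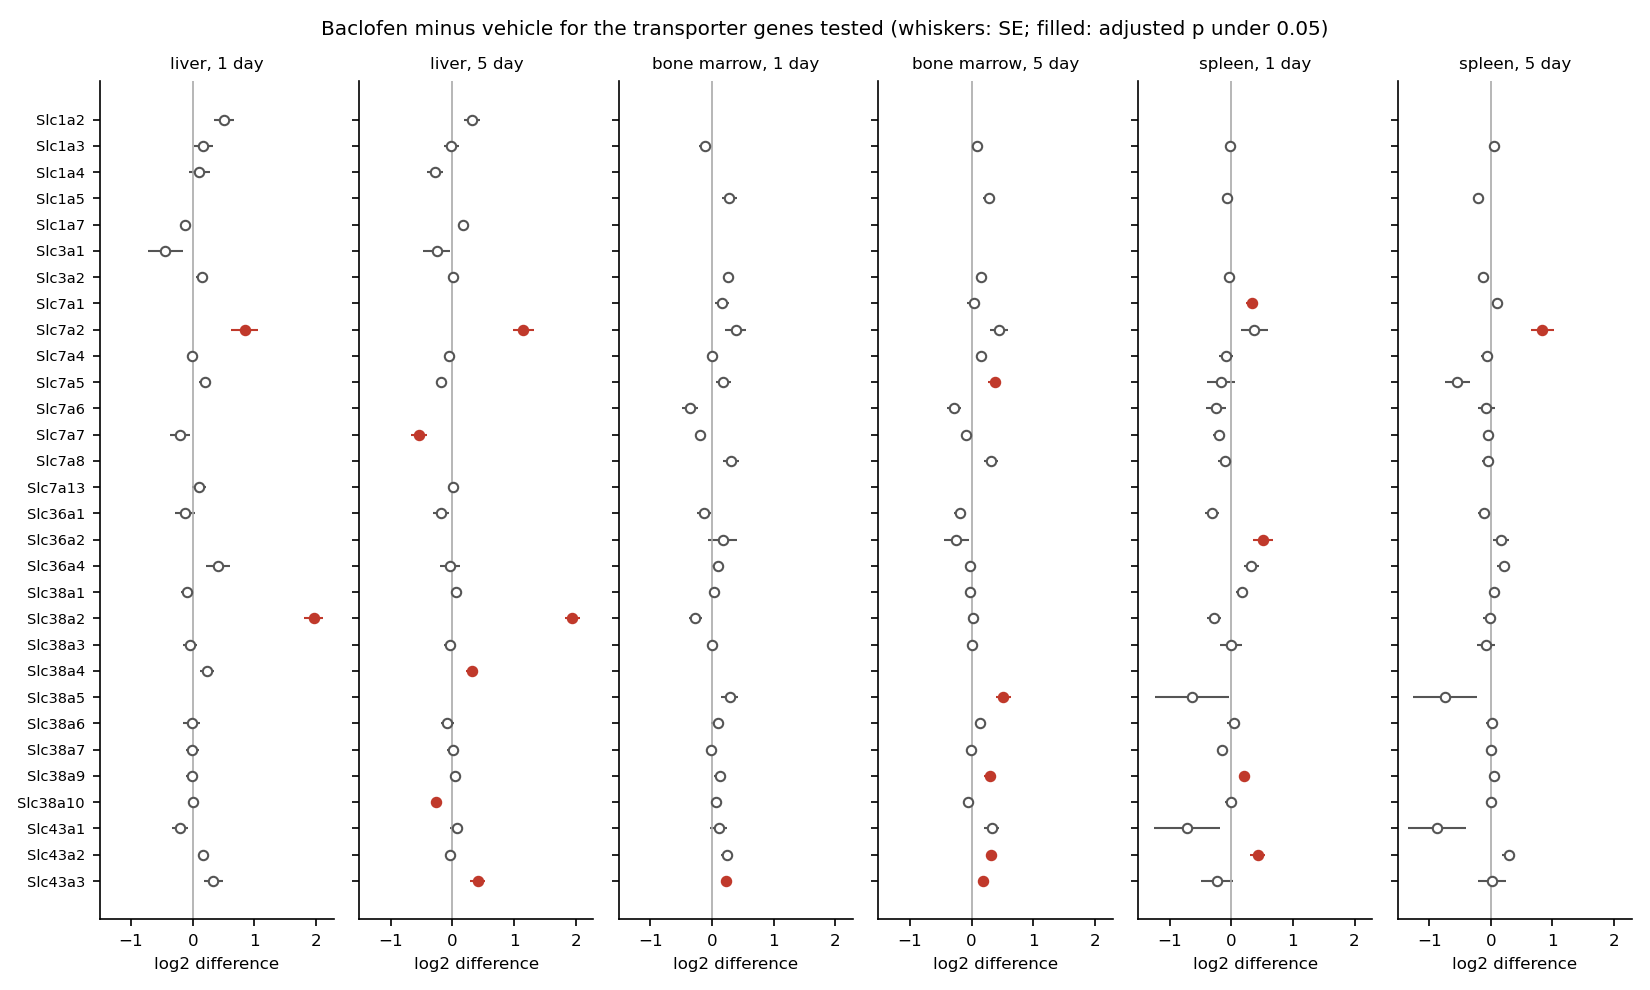
Difference between baclofen and vehicle (log2, horizontal axis) for each transporter gene tested, in 6 panels for tissue and day, with whiskers of 1 SE. Filled red points passed an adjusted p under 0.05 (limma): Slc38a2 lies at 1.96 and 1.95 in the liver panels, and no other called difference exceeds 1.15.

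In liver after 1 dose, 2 of 24 members rose and 0 fell, a share of 8.33%, against 2.67% of all genes called in either direction, 1.58% higher and 1.09% lower. They were Slc38a2 and Slc7a2. Slc38a2 encodes SNAT2, the sodium-coupled system A carrier of alanine, glutamine and other small neutral amino acids, and lies on chromosome 15 from 96687392 to 96699728 (GRCm38.p6). It read 12.002, 11.90, 11.87 and 12.14 in baclofen livers, against 10.09, 9.85 and 10.11 in vehicle livers. All 4 baclofen livers lay above all 3 vehicle livers. The difference was 1.96 ± 0.15 (SE), a 3.90-fold rise, with an adjusted p of 1.29e-06 (limma). Of all 10916 genes it had the smallest p, and it ranked 24 by size of rise.

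Slc38a2 also rose after 5 doses. It ranged from 11.36 to 12.08 with a median of 11.70 over the 8 baclofen livers, and read 9.86, 9.47, 9.63 and 9.997 in the vehicle livers. There was no overlap. The rise of 1.95 ± 0.12 (SE), or 3.85-fold, had an adjusted p of 3.32e-08 (limma), again the smallest p of all genes, and ranked 13 by size of rise. A second probe set of the gene differed by 1.12 ± 0.29 (SE; adjusted p = 0.0554 over all probe sets) at 1 day and by 1.37 ± 0.23 (SE; adjusted p = 0.00158) at 5 days. The third, which was dim in liver at 5.20, differed by 0.18 ± 0.13 and 0.16 ± 0.10 (SE) and passed on neither day. Leaving out any single library kept both calls, with differences from 1.88 to 2.01 at 1 day and from 1.86 to 2.03 at 5 days. Grouped by the source field, the 1-day difference was -0.84 ± 0.44 (SE; adjusted p = 0.9999).

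Slc7a2, which encodes the cationic amino acid carrier CAT2 for arginine, lysine and ornithine, was the other transporter called on both days. It lies on chromosome 8 from 40862341 to 40922070. At 1 day it read 12.27, 12.63, 12.90 and 12.78 in baclofen livers, against 11.34, 11.89 and 12.18 in vehicle livers. The groups did not overlap, though the lowest baclofen liver and the highest vehicle liver were close. The rise was 0.84 ± 0.22 (SE), with an adjusted p of 0.042 (limma). At 5 days it ranged from 12.36 to 12.90 with a median of 12.66 in baclofen livers, and read 11.66, 11.20, 11.05 and 12.02 in vehicle livers. This rise of 1.15 ± 0.17 (SE), or 2.22-fold, had an adjusted p of 0.000486.

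**Figure D2:**
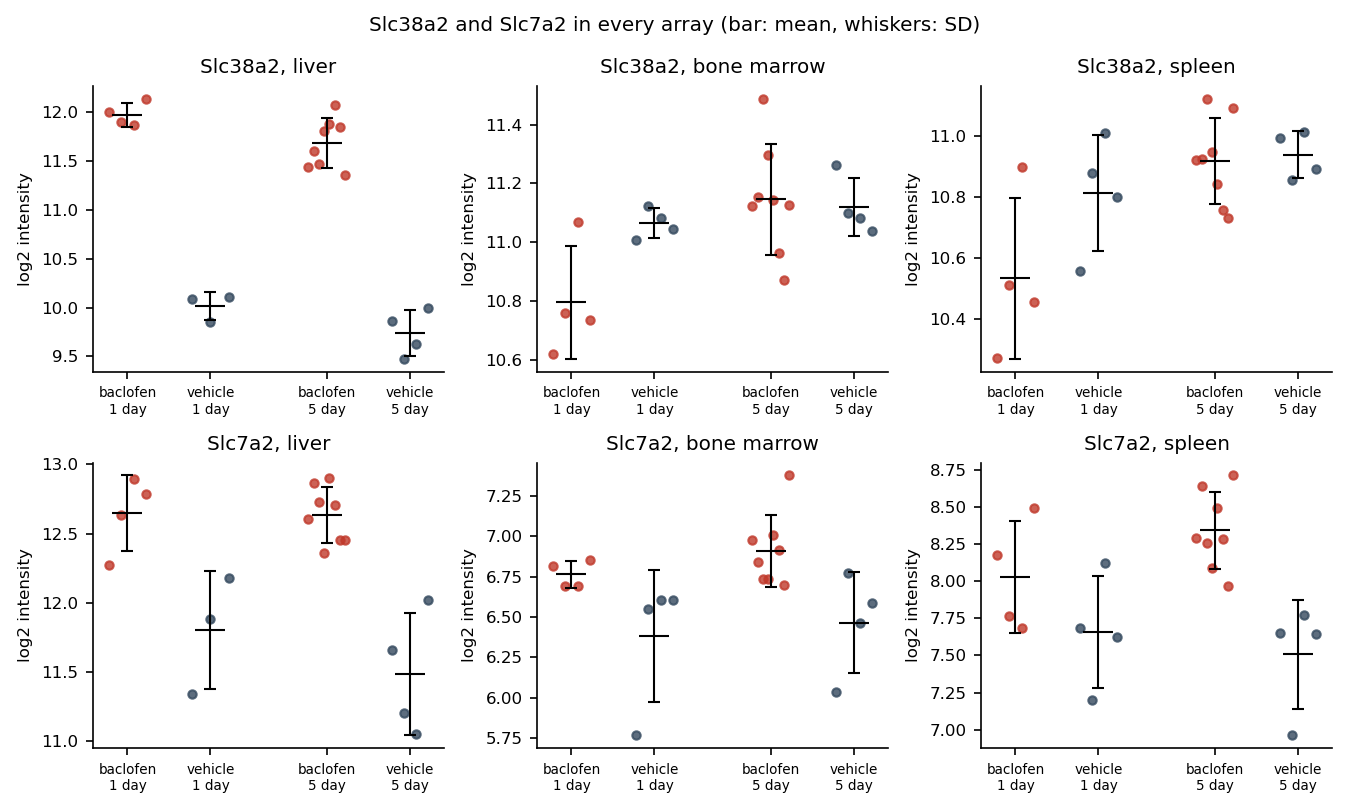
Log2 intensity (vertical axis) of Slc38a2 (top) and Slc7a2 (bottom) in every array of liver, bone marrow and spleen, baclofen in red and vehicle in dark blue, at 1 and 5 days, with the group mean and SD. In liver the baclofen arrays lie above all vehicle arrays of their day for both genes, while in marrow and spleen those of Slc38a2 overlap at 5 days.

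All 4 probe sets of Slc7a2 pointed the same way in liver, by 0.61 to 0.93 at 1 day and by 0.80 to 1.29 at 5 days. The 5-day call held without any 1 library. The 1-day call was lost with RNA quality, the 3′ less 5′ signal of the control probe sets of Gapdh and Actb, as a covariate (adjusted p = 0.0524, limma) and in 5 of 7 fits that each left out a library. It was weakest when vehicle replicate 1 was left out (adjusted p = 0.235), and by the source field the difference was -0.30 ± 0.29 (SE; adjusted p = 0.9999).

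The next member by p in liver after 1 dose, behind Slc38a2 and Slc7a2, was Slc1a2, the glutamate carrier GLT1. It read 8.66, 8.60, 8.83 and 8.60 in baclofen livers, against 8.08, 8.26 and 8.14 in vehicle livers. The groups did not overlap, but the difference of 0.51 ± 0.16 (SE) had an adjusted p of 0.116 (limma). At 5 days it was 0.32 ± 0.13 (SE; adjusted p = 0.124).

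After 5 doses, 4 of 24 members rose in liver and 2 fell, 25% in all, against 10.6% of all genes, 4.86% higher and 5.75% lower. Besides Slc38a2 and Slc7a2, Slc43a3 and Slc38a4 rose. Slc43a3, which in human cells carries purine nucleobases rather than amino acids, ranged from 6.82 to 7.42 with a median of 7.18 in baclofen livers. In vehicle livers it read 6.51, 6.89, 6.85 and 6.81, so that the groups overlapped in 1 baclofen liver. Its rise was 0.41 ± 0.12 (SE; adjusted p = 0.0341, limma). Slc38a4, an imprinted gene in the mouse, rose by 0.31 ± 0.10 (SE; adjusted p = 0.0419), without overlap between groups, and its second probe set rose by 0.54 ± 0.14 (SE; adjusted p = 0.0275 over all probe sets). Each of these 2 calls was lost without any of 7 of the 12 libraries, up to an adjusted p of 0.114 for Slc43a3 and 0.189 for Slc38a4. The call of Slc38a4 was also lost with no brightness filter (adjusted p = 0.0575, limma), with array weights (0.114) and with RNA quality as a covariate (0.127). That measure ranged from 0.371 to 0.485 in baclofen livers and from 0.416 to 0.567 in vehicle livers of 5 days, and its part in the result was not tested.

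The 2 falls were small. Slc38a10, a family member that carries neutral amino acids, ranged from 10.18 to 10.43 with a median of 10.37 in baclofen livers, and read 10.53, 10.66, 10.69 and 10.59 in vehicle livers. No array of one group reached the other. It fell by 0.27 ± 0.05 (SE, log2; adjusted p = 0.00434, limma), and the call held without any 1 library. Its 7 probe sets did not move as one: with all of them averaged the difference was -0.11, at an adjusted p of 0.0851, and the faintest, at a mean of 5.08, differed by 0.08. Slc7a7 encodes y+LAT1, the partner of Slc3a2 that lets cationic amino acids out of the cell. It averaged 6.25 in baclofen livers and 6.78 in vehicle livers, and it fell by 0.54 ± 0.13 (SE, log2; adjusted p = 0.0135). Without vehicle replicate 2, the highest liver at 7.30, the adjusted p was 0.0618.

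Macrophages also express Slc7a7, and their markers moved in the same livers. Of 10 macrophage markers tested, 3 fell and 0 rose at 5 days (30%, against 10.6% of all genes, 5.75% lower). The mean of the list ranged from 8.04 to 8.48 in baclofen livers, against 8.38 to 8.95 in vehicle livers. Their part in the fall of Slc7a7 was not tested. In bulk tissue, fewer cells of a type and less RNA per cell cannot be told apart. The hepatocyte marker mean also lay apart. At 5 days it ranged from 14.47 to 14.57 in baclofen livers, against 14.36 to 14.44 in vehicle livers. Of 10 markers tested, 1 rose and 1 fell (20%, against 10.6% of all genes). The 1 that rose was Tat, the tyrosine transaminase, which also rose at 1 day. At 1 day the mean of the list, Tat included, ranged from 14.47 to 14.51 in baclofen livers, against 14.35 to 14.40 in vehicle livers. The mean without Tat was not computed, and the part of hepatocyte markers in the liver results was not tested. Slc38a3, the system N carrier of glutamine, averaged 13.38 in baclofen livers and 13.42 in vehicle livers at 5 days and did not pass (difference -0.04 ± 0.09, SE; adjusted p = 0.816).

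The response of Slc38a2 differed between liver and the blood-forming tissues by a test of the difference itself, in 1 limma fit of all 12 groups. The baclofen difference in liver exceeded that in marrow by 2.23 ± 0.19 (SE; adjusted p = 1.6e-12) at 1 day and by 1.92 ± 0.16 (SE; adjusted p = 4.28e-13) at 5 days. It exceeded that in spleen by 2.24 ± 0.19 (SE; adjusted p = 1.35e-12) and by 1.97 ± 0.16 (SE; adjusted p = 1.7e-13). By the source field these 1-day values were -0.58 for marrow and -0.57 for spleen, with adjusted p of 0.536 and 0.397.

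Slc38a2 was bright in marrow and spleen too, and its difference there at 1 day was below 0. In marrow it read 10.62, 10.76, 11.07 and 10.74 in baclofen arrays, against 11.01, 11.12, 11.08 and 11.04 in vehicle arrays at 1 day. The groups overlapped through baclofen replicate 3, the library with muscle transcripts. The difference was -0.27 ± 0.11 (SE; adjusted p = 0.125, limma). In spleen at 1 day the difference was -0.28 ± 0.12 (SE; adjusted p = 0.109). At 5 days it was 0.03 in marrow and -0.02 in spleen, and neither passed.

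In the same fit, 17 members could be set between liver and marrow or spleen, and 24 between marrow and spleen. At 5 days the fall of Slc7a7 in liver differed from its value in marrow by -0.44 ± 0.14 (SE; adjusted p = 0.0384) and from that in spleen by -0.49 ± 0.14 (SE; adjusted p = 0.0165). Slc38a10 differed between liver and spleen by -0.27 ± 0.09 (SE; adjusted p = 0.0349). Without the 4 libraries with transcripts of another tissue, these 3 adjusted p were 0.0399, 0.0103 and 0.00152. That fit kept only vehicle replicates 2 and 4 of spleen at 5 days, which read 9.86 and 9.97 for Slc38a10. The vehicle replicates left out, 1 and 3, read 10.40 and 9.98. Called shares of the members, in either direction, were 5.88% and 11.8% for liver less marrow at 1 and 5 days, against 2.27% and 7.8% of all genes. For liver less spleen the shares were 5.88% and 17.6%, against 6.53% and 11.7%. For marrow less spleen they were 0% and 8.33%, against 1.91% and 4.48%.

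Marrow less spleen at 5 days called Slc7a5 and Slc1a5. Slc7a5, or LAT1, is the light chain that exchanges leucine and other large neutral amino acids, and Slc1a5, or ASCT2, exchanges glutamine and other small neutral amino acids. The difference between the tissues was 0.92 ± 0.20 (SE; adjusted p = 0.00551) for Slc7a5. Within tissues Slc7a5 rose by 0.38 in marrow and differed by -0.54 ± 0.20 (SE; adjusted p = 0.106) in spleen. For Slc1a5 the difference between the tissues was 0.49 ± 0.13 (SE; adjusted p = 0.0219), from 0.28 ± 0.10 (SE; adjusted p = 0.0853) in marrow and -0.21 ± 0.08 (SE; adjusted p = 0.112) in spleen. Without spleen vehicle 5 day replicate 2, whose erythroid mean of 11.40 was the highest of its group, the adjusted p were 0.0569 for Slc7a5 and 0.121 for Slc1a5.

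In marrow after 1 dose, 1 of 24 members rose and 0 fell (4.17%, against 7.36% of all genes, 3.11% higher and 4.25% lower). Slc43a3 read 10.21, 10.21, 10.01 and 10.17 in baclofen marrows, against 9.97, 9.95, 9.86 and 9.89 in vehicle marrows. The groups did not overlap, and the rise was 0.23 ± 0.07 (SE; adjusted p = 0.0451, limma). The call was lost without any of 7 of the 8 libraries, up to an adjusted p of 0.14. When baclofen replicate 3, which held muscle transcripts, was left out, the call was kept, at a rise of 0.28 ± 0.07 (SE; adjusted p = 0.0153). The next members by p were Slc3a2 and Slc7a6. Slc3a2, the heavy chain of Slc7a5, averaged 10.78 ± 0.09 in baclofen marrows and 10.51 ± 0.19 in vehicle marrows (SD, n = 4 each). Its difference of 0.26 ± 0.09 (SE) had an adjusted p of 0.0682. Slc7a6, or y+LAT2, ranged from 6.96 to 7.17 in baclofen marrows and from 7.22 to 7.64 in vehicle marrows. It did not overlap, but its difference of -0.35 ± 0.13 (SE) had an adjusted p of 0.107.

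In marrow after 5 doses, 5 of 24 members rose and 0 fell, which was 20.8%, against 10.1% of all genes called in either direction, 6.15% higher and 3.93% lower. They were Slc38a5, Slc43a2, Slc7a5, Slc38a9 and Slc43a3. The median difference was 0.11 over the 24 members, against 0.00 over all genes tested. Slc38a5 lies on chromosome X from 8271381 to 8280179. It ranged from 10.46 to 11.09 with a median of 10.87 in baclofen marrows, and read 9.93, 10.41, 10.39 and 10.44 in vehicle marrows. All 8 baclofen marrows lay above all 4 vehicle marrows. The rise was 0.52 ± 0.12 (SE), or 1.43-fold, with an adjusted p of 0.0134 (limma). Without vehicle replicate 1 it was 0.40, at an adjusted p of 0.0717.

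Slc43a2, or LAT4, ranged from 9.34 to 9.52 with a median of 9.42 in baclofen marrows, and read 9.21, 9.004, 8.98 and 9.24 in vehicle marrows. The groups did not overlap. It rose by 0.31 ± 0.08 (SE; adjusted p = 0.0222), and the call was lost without vehicle replicate 2 or 3. Slc7a5 ranged from 10.42 to 10.78 with a median of 10.53 in baclofen marrows, and read 9.83, 10.33, 10.33 and 10.20 in vehicle marrows. It rose by 0.38 ± 0.11 (SE; adjusted p = 0.0324), without overlap. Without vehicle replicate 1, its lowest array, the rise was 0.26, at an adjusted p of 0.163.

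**Figure D3:**
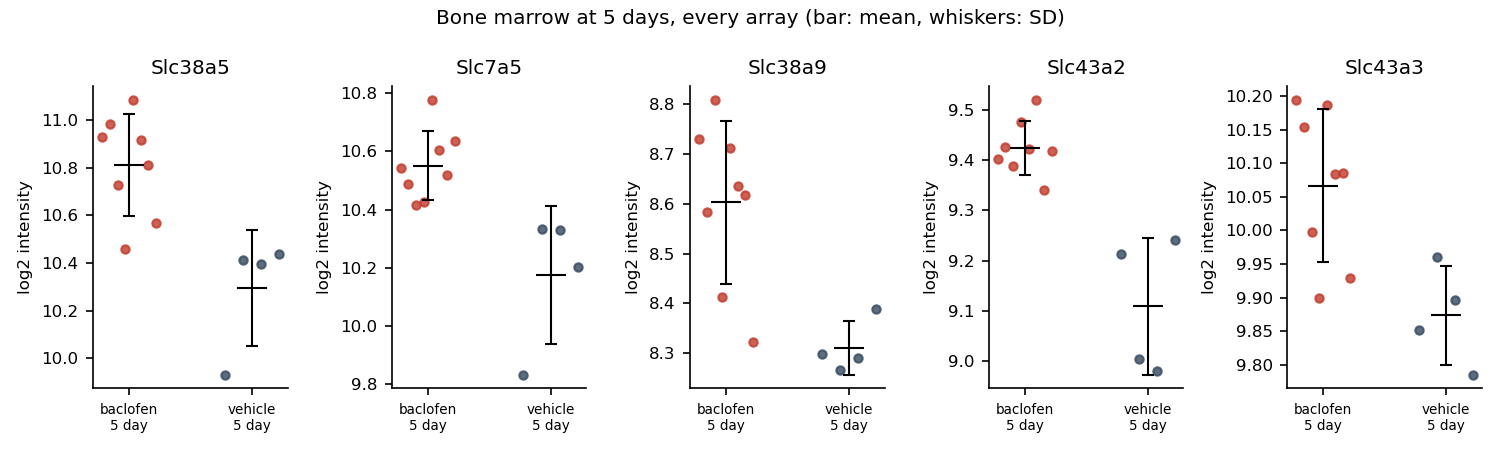
Log2 intensity (vertical axis) of the 5 transporter genes called in bone marrow at 5 days, 8 baclofen arrays (red) and 4 vehicle arrays (dark blue) each, with mean and SD. The groups do not overlap for Slc38a5, Slc7a5 and Slc43a2, and do for Slc38a9 and Slc43a3.

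Slc38a9, the lysosomal protein that senses arginine for the growth kinase mTORC1, ranged from 8.32 to 8.81 with a median of 8.63 in baclofen marrows, and read 8.30, 8.27, 8.29 and 8.39 in vehicle marrows. The groups overlapped in 1 baclofen marrow. The rise was 0.29 ± 0.09 (SE; adjusted p = 0.036), all 7 probe sets pointed the same way, and the call was lost without any of 9 of the 12 libraries. Slc43a3 ranged from 9.90 to 10.19 with a median of 10.08 in baclofen marrows, and read 9.85, 9.96, 9.90 and 9.79 in vehicle marrows. The groups overlapped, the rise was 0.19 ± 0.06 (SE; adjusted p = 0.0453), and the call was lost without any of 8 libraries.

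Red cell markers moved with these marrow genes. Of 11 erythroid markers tested, 9 rose and 0 fell in marrow at 5 days (81.8%, against 10.1% of all genes, 6.15% higher). The mean of the 12 markers found ranged from 11.54 to 11.85 in baclofen marrows, against 11.05 to 11.51 in vehicle marrows. Vehicle replicate 1, the lowest array for Slc38a5 and Slc7a5, was also the lowest for the erythroid mean. Among white cell markers, 2 of 11 mature neutrophil markers (18.2%) and 1 of 5 granulocyte precursor markers (20%) fell, against 3.93% of all genes lower. Of 8 macrophage markers 2 rose (25%, against 6.15% of all genes higher). With the RNA quality measure as covariate, only Slc38a5 of these 5 kept its call (adjusted p = 0.0325, limma), and 2 members passed in all. That measure ranged from 0.016 to 0.153 in baclofen marrows, against 0.027 to 0.050 in vehicle marrows. The part of the cell mix and of RNA quality in these rises was not tested.

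In spleen after 1 dose, 4 of 24 members rose and 0 fell (16.7%, against 15.5% of all genes, 7.64% higher and 7.91% lower). Slc43a2 read 9.65, 9.72, 9.66 and 9.75 in baclofen spleens, against 9.04, 9.27, 9.56 and 9.19 in vehicle spleens. All baclofen spleens lay above all vehicle spleens. It rose by 0.43 ± 0.12 (SE; adjusted p = 0.019, limma), and its 2 other probe sets differed by 0.41 and 0.72. Slc7a1, the cationic amino acid carrier CAT1 found in most dividing cells, read 10.38, 10.50, 10.37 and 10.21 in baclofen spleens, against 10.10, 10.14, 9.85 and 10.03 in vehicle spleens. The groups did not overlap, and it rose by 0.34 ± 0.09 (SE; adjusted p = 0.0223). Its second bright probe set rose by 0.41 ± 0.09 (SE; adjusted p = 0.0106 over all probe sets).

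Slc36a2, a proton-coupled carrier of glycine, proline and alanine, read 7.60, 7.61, 7.83 and 7.39 in baclofen spleens, against 6.63, 7.07, 7.58 and 7.09 in vehicle spleens. The groups overlapped, through 1 vehicle spleen at 7.58. It rose by 0.51 ± 0.16 (SE; adjusted p = 0.0315). Slc38a9 read 8.87, 8.95, 9.03 and 9.01 in baclofen spleens, against 8.76, 8.84, 8.74 and 8.70 in vehicle spleens. It rose by 0.21 ± 0.06 (SE; adjusted p = 0.0381), without overlap, but 1 of its 7 probe sets differed by -0.32, and the mean of the 7 did not pass (adjusted p = 0.442). Leaving out 1 library lost the call of Slc7a1 in 2 of 8 cases, Slc43a2 in 3, Slc38a9 in 5 and Slc36a2 in 6. Across those cases the highest adjusted p were 0.0656, 0.0705, 0.0968 and 0.117, in the same order of genes.

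**Figure D4:**
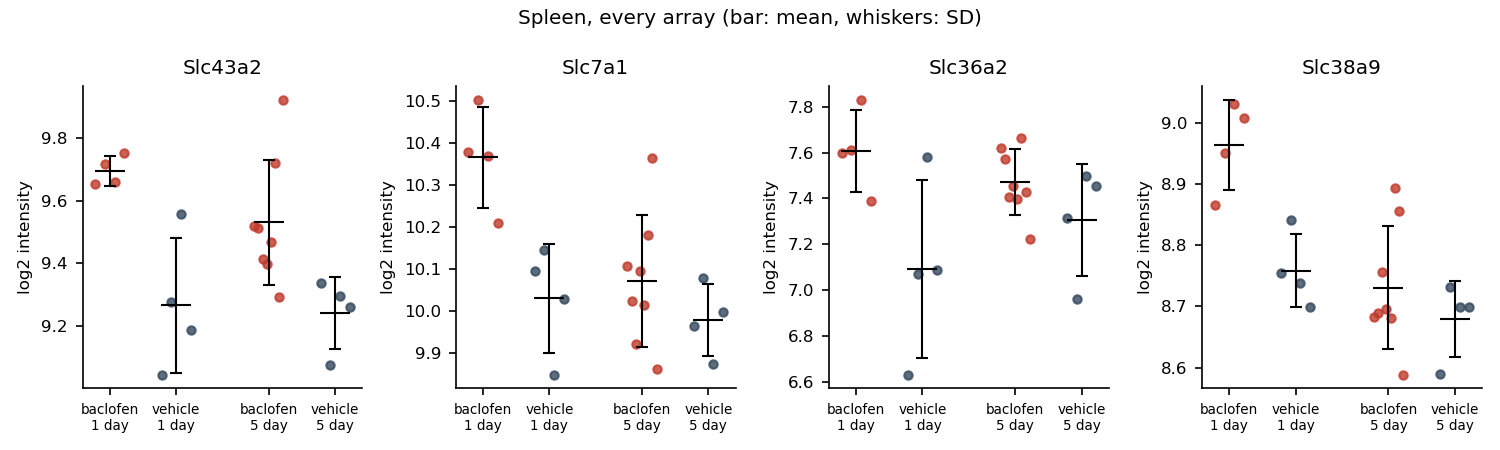
Log2 intensity (vertical axis) of Slc43a2, Slc7a1, Slc36a2 and Slc38a9 in every spleen array, baclofen in red and vehicle in dark blue, at 1 and 5 days, with mean and SD. At 1 day baclofen lies above vehicle without overlap for Slc43a2, Slc7a1 and Slc38a9, and at 5 days the groups overlap for all 4 genes.

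Some white cell markers moved in the same spleens. At 1 day 4 of 11 mature neutrophil markers (36.4%) and 3 of 5 granulocyte precursor markers (60%) fell, and none of either list rose. Of all genes 15.5% were called and 7.91% were lower. Of the other white cell lists, 1 of 5 B cell, 0 of 5 T cell and 0 of 9 macrophage markers were called. The granulocyte precursor mean ranged from 7.24 to 8.32 in baclofen spleens, against 8.03 to 9.79 in vehicle spleens. The T cell mean ranged from 9.48 to 9.88 in baclofen spleens, against 8.89 to 9.83 in vehicle spleens, so the groups overlapped. The part of these cell types in the 4 rises was not tested.

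In spleen after 5 doses, 1 of 24 members rose and 0 fell (4.17%, against 4.43% of all genes, 3.05% higher and 1.38% lower). Slc7a2 ranged from 7.96 to 8.71 with a median of 8.29 in baclofen spleens, and read 7.65, 6.96, 7.77 and 7.64 in vehicle spleens. All 8 baclofen spleens lay above all 4 vehicle spleens. The rise was 0.83 ± 0.19 (SE), or 1.78-fold, with an adjusted p of 0.0171 (limma). Its other 3 probe sets were dim in spleen, at means of 3.83 to 4.48, and differed by 0.18 to 0.28 with no call. Without vehicle replicate 2 the adjusted p was 0.0955. Slc7a2 is bright in liver, and 3 of these spleens held liver transcripts. The hepatocyte mean was 5.90 ± 1.36 in baclofen spleens (SD, n = 8) and 6.92 ± 1.76 in vehicle spleens (SD, n = 4). Without the libraries with transcripts of another tissue the rise was 1.02, at an adjusted p of 0.0527. Only vehicle replicates 2 and 4, at 6.96 and 7.64, then remained. Slc7a2 did not pass in marrow, where it differed by 0.38 ± 0.18 (SE; adjusted p = 0.185) at 1 day and 0.44 ± 0.15 (SE; adjusted p = 0.0658) at 5 days.

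The next members by p in spleen at 5 days were Slc43a2 and Slc7a5, and neither passed. Slc43a2 ranged from 9.29 to 9.92 with a median of 9.49 in baclofen spleens, and read 9.34, 9.07, 9.29 and 9.26 in vehicle spleens, a difference of 0.29 ± 0.10 (SE; adjusted p = 0.0965, limma). Slc7a5 ranged from 8.91 to 9.66 with a median of 9.10 in baclofen spleens, and read 9.62, 10.20, 9.29 and 9.59 in vehicle spleens. Slc38a4, dim in spleen, shows the liver transcripts. It read 4.80 in baclofen 5 day replicate 5, against 5.42 in vehicle 5 day replicate 3, and 3.29 to 3.67 in the other 18 spleens.

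Across spleens, the 2 tested transporters with the widest range were Slc38a5 and Slc43a1, the system L uniporter LAT3. Slc38a5 ranged from 7.30 to 11.34 over the 20 spleens. Its baclofen difference was -0.63 ± 0.60 (SE; adjusted p = 0.483) at 1 day and -0.75 ± 0.52 (SE; adjusted p = 0.359) at 5 days. For Slc43a1 the differences were -0.71 ± 0.54 (SE; adjusted p = 0.371) and -0.87 ± 0.47 (SE; adjusted p = 0.239). The spread ran with the red cell markers, the only marker list set against it. Other lists varied too: over the 20 spleens the proliferation mean ranged from 9.83 to 12.03 and the mature neutrophil mean from 8.55 to 10.86. Their relation to these transporters was not tested. Between Slc38a5 and the erythroid mean, Pearson's r over 20 spleens was 0.992 and Spearman's rho 0.974, with Benjamini-Hochberg adjusted permutation p of 2.4e-05 and 3e-05. For Slc43a1 they were 0.979 and 0.959, with the same p, and for Slc7a5 0.826 and 0.802, with 6e-05 and 9.6e-05.

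The same relation was present in marrow, over a range of the erythroid mean from 11.05 to 11.85. Over 20 marrows r and rho were 0.950 and 0.943 for Slc38a5, 0.927 and 0.908 for Slc43a1, and 0.890 and 0.767 for Slc7a5. The adjusted permutation p were 2.4e-05 for each r, and 3e-05, 3e-05 and 0.00018 for rho. These 6 relations were computed after the data had been seen, and 2e-05 is the smallest unadjusted p that 100000 permutations can give in a two-sided test. Without the 2 arrays farthest from the median, r was 0.987, 0.974 and 0.813 in spleen and 0.913, 0.868 and 0.785 in marrow, for Slc38a5, Slc43a1 and Slc7a5 in this order.

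**Figure D5:**
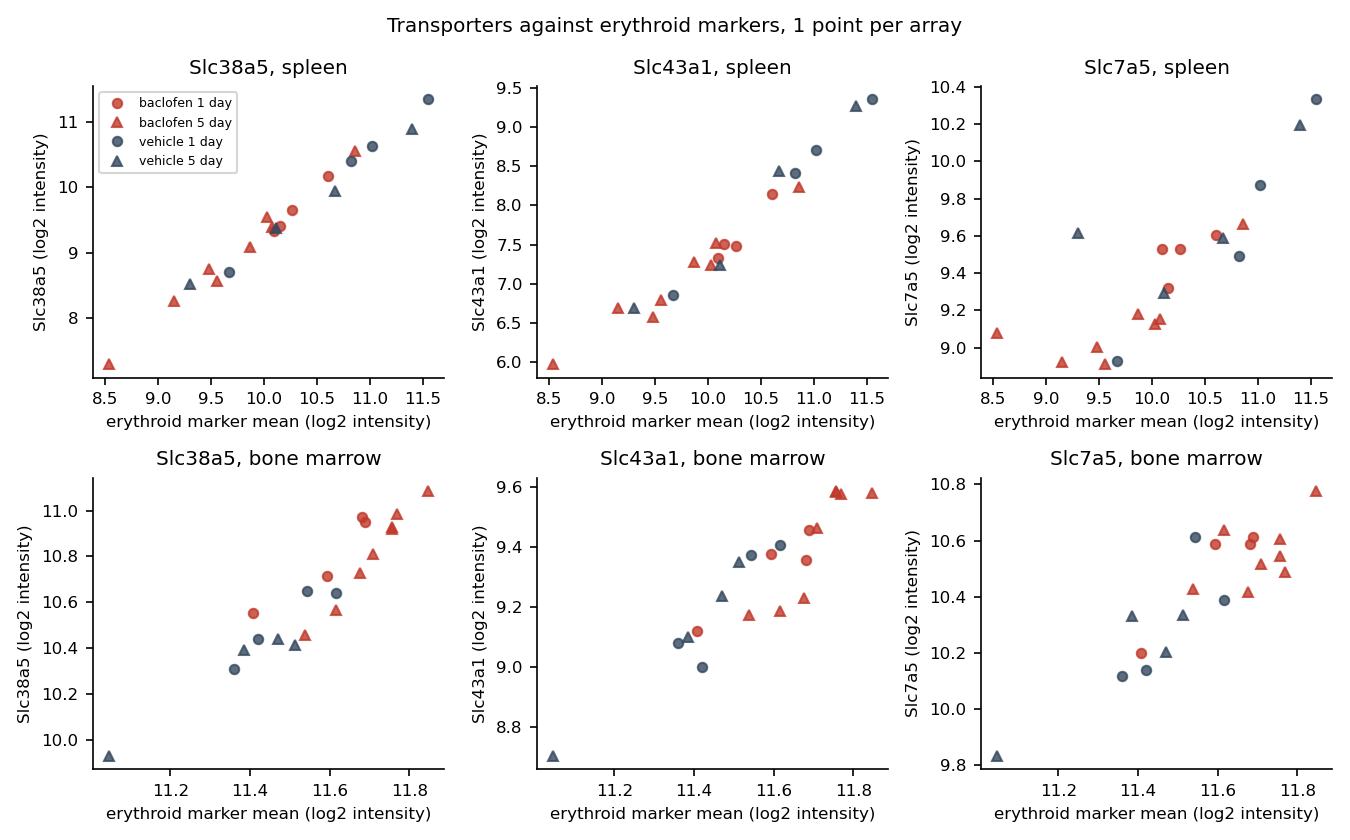
Log2 intensity of Slc38a5, Slc43a1 and Slc7a5 (vertical axes) against the mean of 12 erythroid markers (horizontal axes, log2), 1 point per array, in spleen (top) and bone marrow (bottom), baclofen in red and vehicle in dark blue. Slc38a5 and Slc43a1 run along a line in both tissues, with r of 0.992 and 0.979 in spleen, and Slc7a5 scatters more.

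Within the 8 baclofen arrays of 5 days, by exact permutation, r was 0.993 in spleen (p = 0.000198) and 0.992 in marrow (p = 4.96e-05) for Slc38a5. For Slc43a1 it was 0.976 (exact p = 0.000496) and 0.898 (exact p = 0.000843). For Slc7a5 it was 0.752 in spleen (exact p = 0.0421) and 0.581 in marrow (exact p = 0.112). Spearman's rho over the same arrays was 0.952 in spleen (exact p = 0.00114) and 1 in marrow (exact p = 4.96e-05) for Slc38a5. For Slc43a1 rho was 0.952 in spleen (exact p = 0.00114) and 0.81 in marrow (exact p = 0.0218). For Slc7a5 rho was 0.714 in spleen (exact p = 0.0576) and 0.429 in marrow (exact p = 0.299), so that Slc7a5 passed by r in spleen, by rho in neither tissue and by r not in marrow at 8 arrays.

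The size of the baclofen difference was also compared between days. In no tissue did a member pass an adjusted p of 0.05 for 5 days less 1 day (limma), and of all 10916 genes 2 passed in liver (0.0183%), 0 in marrow and 0 in spleen. At an unadjusted p under 0.05 stood 3 of 24 members in liver (12.5%), against 1050 of all genes (9.62%). In marrow it was 1 member (4.17%), against 559 of all genes (5.12%), and in spleen 0 members, against 858 of all genes (7.86%). For Slc7a2 in liver the difference grew by 0.31 ± 0.28 (SE; adjusted p = 0.749). Vehicle arrays of 5 days against those of 1 day called 0 members and 0 of all genes at an adjusted p of 0.05 in each tissue (limma). At an unadjusted p under 0.05 they held 1 member in liver, 0 in marrow and 0 in spleen, against 779, 510 and 378 of all genes.

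Other genes of amino acid handling were counted from 4 lists, with the 1-day livers grouped by the title and treatment field alone. Of all genes tested, in either direction, 2.67% were called in liver at 1 day and 10.6% at 5 days, 7.36% and 10.1% in marrow, and 15.5% and 4.43% in spleen, and each list count is read against these shares. Of 23 genes of amino acid breakdown and the urea cycle tested in liver, 5 rose and 0 fell at 1 day (21.7%, against 2.67% of all genes), with a median difference of 0.15 against -0.01 over all genes. Ass1, which makes argininosuccinate from citrulline, rose by 2.36 ± 0.36 (SE; adjusted p = 0.000799, limma). Tat, the tyrosine transaminase, rose by 1.39 ± 0.22 (SE; adjusted p = 0.000973). Gpt2, an alanine transaminase, rose by 0.68 ± 0.12 (SE; adjusted p = 0.00341). At 5 days 9 rose and 1 fell (43.5%, against 10.6%), led by Tat at 1.35, the aspartate transaminase Got1 at 1.16 and the tryptophan dioxygenase Tdo2 at 0.38, and the median was 0.18 against -0.02. In marrow 1 of 13 rose on each day (7.69%, against 7.36% and 10.1%), and in spleen 0 and 1 of 11 (9.09% at 5 days, against 4.43%). That 1 gene was Glul, the glutamine synthetase, which rose by 0.30 and 0.40 in marrow and by 0.43 in spleen at 5 days.

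Of 26 genes of the ATF4 amino acid response tested in liver, 1 rose and 0 fell at 1 day (3.85%, against 2.67% of all genes), and 2 rose and 4 fell at 5 days (23.1%, against 10.6%). The list median was 0.09 and -0.05 on these days. Cebpb, a transcription factor of liver metabolism, rose by 1.49 ± 0.18 (SE; adjusted p = 0.000184) at 1 day and 1.23 ± 0.15 (SE; adjusted p = 6.01e-05) at 5 days. Atf5 fell by 0.48 ± 0.10 (SE, log2; adjusted p = 0.00523), and Ppp1r15a, a phosphatase subunit of the stress response, rose by 0.47 ± 0.10 (SE; adjusted p = 0.00575) at 5 days. In marrow 1 of 25 rose at 1 day (4%, against 7.36%), and 1 rose and 2 fell at 5 days (12%, against 10.1%). In spleen 1 of 23 rose and 1 fell at 1 day (8.7%, against 15.5%), and 0 rose and 1 fell at 5 days (4.35%, against 4.43%).

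Another list held genes by which mTORC1 senses amino acids together with other regulators of mTORC1, Ddit4 among them. Of 30 tested in liver, 1 rose at 1 day (3.33%, against 2.67% of all genes), and this was Ddit4. At 5 days 4 rose (13.3%, against 10.6%), and 0 fell on either day. In marrow, of 32 tested, 2 rose and 2 fell at 1 day (12.5%, against 7.36%), and 2 rose and 1 fell at 5 days (9.38%, against 10.1%). In spleen, of 32, 3 rose and 1 fell at 1 day (12.5%, against 15.5%), and 3 rose and 0 fell at 5 days (9.38%, against 4.43%). Ddit4, an inhibitor of mTORC1, was among them in every comparison, with rises of 3.43 and 1.68 in liver, 2.30 and 2.35 in marrow and 2.22 and 1.33 in spleen at 1 and 5 days. Sesn1, a sestrin of the family that holds a leucine sensor, rose by 0.44 in marrow at 5 days and by 1.31 and 0.92 in spleen at 1 and 5 days. Castor1, a cytosolic arginine sensor, rose by 0.31 and 0.21 in spleen. List medians lay between 0.01 and 0.04 in the 6 comparisons, against -0.03 to 0.00 over all genes.

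Of other amino acid carriers, 2 of 18 rose and 0 fell in liver at 1 day (11.1%, against 2.67% of all genes). They were the mitochondrial glutamate carrier Slc25a22, by 0.94 ± 0.15 (SE; adjusted p = 0.00139), and the ornithine carrier Slc25a15, by 0.43 ± 0.10 (SE; adjusted p = 0.0263). At 5 days 2 rose and 1 fell (16.7%, against 10.6%). Slc15a4, a lysosomal histidine and peptide carrier, rose by 0.84 ± 0.17 (SE; adjusted p = 0.00385) in liver at 5 days. In marrow it was the 1 gene of 18 called at 1 day (5.56%, against 7.36%), and it fell by 0.55 ± 0.11 (SE, log2; adjusted p = 0.00551). At 5 days 3 rose in marrow and 1 fell (22.2%, against 10.1%), with rises of 0.77 for Slc6a20a, a proline carrier, and 0.50 for the glycine carrier Slc6a9. In spleen 1 of 16 rose and 1 fell at 1 day (12.5%, against 15.5%), and 1 rose at 5 days (6.25%, against 4.43%). Slc25a29, a mitochondrial carrier of cationic amino acids, rose by 0.51 and 0.28 there.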

How the data were processed

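RNA of 59 tissues was hybridised to 1-colour arrays after one-cycle biotin labelling, with different RNA kits for bone marrow and for liver and spleen, per the labels' protocols. RMA and limma are named in the submitters' processing notes, without versions. The deposited values are RMA intensity on a linear scale, from 5.25 to 43115, and depth does not apply to arrays, whose number limits the precision. Log2 of the deposited intensity was taken, and 64 control probe sets were left out. Probe sets with 1 gene symbol (34945, against 932 with several and 9160 with none) were used, and per gene and tissue the one with the highest mean. Genes at or above percentile 40 of gene means were tested, with a lowest mean intensity of 42.9 in liver, 83.6 in marrow and 79.5 in spleen. Fits were made per tissue with limma 3.58.1 (R 4.3.3; lmFit and eBayes) over the 4 groups, and tissue differences in 1 fit of 12 groups, with Benjamini-Hochberg adjustment over all genes tested and a threshold of 0.05. The fit was tested on simulated data.

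Every member could be named. Values per array are given for members past the threshold in at least 2 of the 6 baclofen comparisons and for the 3 members with the smallest adjusted p in each, and from the other lists at most 3 genes per comparison. The members and lists were chosen with earlier results of these data known. Correlations of same-numbered deviations ranged from -0.458 to 0.271, and in no tissue and day were all of them over 0.1. In liver at 1 day 2 of 3 vehicle arrays correlated best with their own number. In marrow and in spleen it was 1 of 4 at 1 day, and in each tissue 0 of 4 at 5 days. With so few arrays the check cannot tell whether replicate numbers pair arrays, and the main fits did not pair them. No array columns of other samples were found, and no 2 arrays were identical. Alternatives covered the brightness filter, the choice of probe set, quantile and median normalization, array weights, RNA quality, the replicate number, single libraries, 4 libraries with transcripts of another tissue, and the source field of the 1-day livers.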

Additional observations from a re-analysis of the deposited data

Results flagged for a closer look

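In 5 of 41 sets of values, each of 1 gene in 1 group of 4 to 10 arrays, 1 array lay far from the rest. The cut used gives about 1 in 20 for independent sets. These genes were picked by their results in these data and share arrays, so the count cannot be read against that rate. Slc38a10 was 10.18 in liver baclofen 5 day replicate 8, while the rest of the group lay between 10.32 and 10.43. Slc3a2 was 10.64 in marrow baclofen 1 day replicate 3, the library with muscle transcripts, against 10.82 to 10.83. Slc38a5 was 9.93 in marrow vehicle 5 day replicate 1, against 10.39 to 10.44, and the erythroid marker mean of this array was the lowest of all marrows, at 11.05. Slc7a2 was 6.96 in spleen vehicle 5 day replicate 2, against 7.64 to 7.77. Slc7a5 was 9.66 in spleen baclofen 5 day replicate 7, against 8.91 to 9.18, and its erythroid mean of 10.86 was the highest of that group.

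The baclofen difference itself differed between tissues in 9 cases (limma, interaction terms). For Slc38a2, liver exceeded marrow by 2.23 at 1 day and 1.92 at 5 days, and spleen by 2.24 and 1.97, and no single library ended these calls. For Slc7a7 at 5 days, liver less marrow was -0.44 and liver less spleen -0.49. Without liver vehicle 5 day replicate 2 these were -0.27 and -0.32, with adjusted p of 0.201 and 0.0957. For Slc38a10, liver less spleen at 5 days was -0.27, and 7 of 24 single libraries ended the call, up to an adjusted p of 0.154. Marrow less spleen at 5 days was 0.49 for Slc1a5 and 0.92 for Slc7a5. Without spleen vehicle 5 day replicate 2 they were 0.39 and 0.74, with adjusted p of 0.121 and 0.0569.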

How the results depend on the processing

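Of 28 gene results followed, 14 (7 of 19 within a tissue, which had 8 or 9 settings, and 7 of 9 tissue differences, which had 4 or 5) kept their direction and call under the settings run on them, other than leaving out single libraries and the source field, and quantile normalization kept all 28. With each probe set fitted apart, the probe set with the smallest adjusted p stood for the gene, so that setting favours a kept call. None of 396 fits without 1 library turned a direction. By the source field of the 1-day livers, 4 turned: Slc38a2 in liver was -0.84 and Slc7a2 -0.30, and Slc38a2 was -0.58 for liver less marrow and -0.57 for liver less spleen. Counts of members called then were 0 in liver at 1 day (2 by title), 1 for liver 5 days less 1 day, 1 for vehicle livers of 5 days against 1 day, 0 for liver less marrow and 2, both lower, for liver less spleen at 1 day. In marrow at 1 day, where 1 was called, the count was 0 without the filter, 0 after median centring, 9 with array weights and 4 without the 4 libraries with transcripts of another tissue. In marrow at 5 days, where 5 were called, it was 3 without the filter, 13 with array weights and 2 with RNA quality as covariate. Array weights gave 10 in spleen at 1 day (4 without weights). RNA quality gave 1 in liver at 1 day. The mean of probe sets gave 0 in spleen at 5 days, where 1, Slc7a2, was called. Slc7a2 was not tested there under that setting. The mean of its probe sets, at 7.98, 4.48, 3.91 and 3.83, lay under the brightness filter. Without the 4 libraries, liver less spleen at 5 days gave 6 (3 with them) and marrow less spleen 4 (2 with them). Only vehicle replicates 2 and 4 of spleen at 5 days were left in these fits. With the replicate number as a block, counts were 1 in liver at 1 day, 0 in marrow at 5 days and 0 in spleen at 5 days. This lost 9 gene calls, among them Slc7a2 in liver at 1 day (adjusted p = 0.15, limma). Whether replicate numbers pair the arrays is not known. In liver at 1 day 2 of 3 vehicle arrays correlated best with their own number, and in spleen 1 of 4. The share of all genes called was not counted under these settings. These counts can therefore not be read as particular to the members. Apart from Slc7a2 under the mean of probe sets, the cause was not tested in these cases.

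Without single libraries, counts ranged from 1 to 2 in liver at 1 day and 3 to 7 at 5 days. They ranged from 0 to 4 and 1 to 7 in marrow, and 1 to 4 and 0 to 2 in spleen. The share of all genes called was not counted in these fits either. For tissue differences at 1 and 5 days they ranged from 1 to 2 and 1 to 3 for liver less marrow, 1 to 2 and 1 to 4 for liver less spleen, and 0 to 4 and 0 to 4 for marrow less spleen. Differences between days and between vehicle groups stayed at 0. Arrays do not resolve members near background. In each tissue 16 of 40 genes lay under the filter, which is a cut by rank and not a limit of detection.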
